A study of Mus musculus with 9 samples.

Results

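The AP-1, Egr and Nab immediate early genes were followed as 10 genes, Fos, Fosb, Jun, Junb, Jund, Atf3, Egr1, Nab1, Nab2 and Btg2, among 23997 gene symbols in the deposited expression tables. Each was found by its symbol, at 1 locus with no failed estimate, and the genes were picked with results from these libraries already known. Their levels and the differences between groups are therefore given as a description, without p-values or calls. The libraries came from retinal ganglion cells (RGCs), the neurons whose axons form the optic nerve, of C57BL/6J mice, with an age of 8 weeks in the labels and an injection at 6 weeks in the design text. Control eyes received saline in the anterior chamber. Mild IOP and Moderate IOP eyes received microbeads there, which raise the intraocular pressure (IOP), and after 2 weeks were assigned to a group by how far their IOP had risen. All groups were of the same strain, and their retinas were dissociated and panned alike, on plates that remove other cell types and then on Thy1.2 antibody, in solutions with actinomycin D, an inhibitor of transcription. RNA of each group was pooled and split into 3 technical replicates, so the 9 libraries describe 3 pools and the spread between replicates holds no variation between animals. Per the study's methods, the Moderate IOP pool came from fewer retinas than the other pools. The study included mice of both sexes, and the pools differed in sex-linked transcripts. Ddx3y, transcribed from the Y chromosome, ranged from 1.22 to 2.88 scaled FPKM in Control, from 8.34 to 9.43 in Mild IOP and from 0.19 to 0.60 in Moderate IOP. A difference between groups can therefore not be told apart from a difference in the make-up of the pools.

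Immediate early genes are transcribed within minutes of a stimulus without new protein synthesis, and in neurons they respond to activity, growth factors and injury. Fos and Jun proteins pair to form the AP-1 transcription factor, Atf3 can join the same kind of dimer, and Egr1 is a zinc finger factor whose activity is held down by the corepressors Nab1 and Nab2, of which Nab2 is itself a known Egr1 target. Btg2 is an antiproliferative gene that is induced along with them. In RGCs, Jun and Atf3 are known for their induction after injury of the axon.

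Promoter stretches are shown for the Fos subunit with the highest level, for the Jun subunit whose groups lay farthest apart and for Btg2, as these are start sites at which the factors that drive immediate early genes are known to act. Each line gives the 250 bases before the RefSeq start site (GRCm38.p6), 5′ to 3′ on the strand of the gene, at chr12:85473640-85473889 (plus strand) for Fos, chr8:84978749-84978998 (minus strand) for Junb and chr1:134079156-134079405 (minus strand) for Btg2. Capitals mark matches, on either strand, to the cyclic AMP response element (CRE, TGACGTCA), its short form (TGACG), the Egr site (GCGNGGGCG) and the TATA box (TATAAA).
Fos: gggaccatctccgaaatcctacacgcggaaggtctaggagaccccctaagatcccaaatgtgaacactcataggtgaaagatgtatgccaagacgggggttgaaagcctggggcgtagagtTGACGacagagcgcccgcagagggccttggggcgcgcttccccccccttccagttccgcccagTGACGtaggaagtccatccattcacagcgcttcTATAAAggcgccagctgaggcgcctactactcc
Junb: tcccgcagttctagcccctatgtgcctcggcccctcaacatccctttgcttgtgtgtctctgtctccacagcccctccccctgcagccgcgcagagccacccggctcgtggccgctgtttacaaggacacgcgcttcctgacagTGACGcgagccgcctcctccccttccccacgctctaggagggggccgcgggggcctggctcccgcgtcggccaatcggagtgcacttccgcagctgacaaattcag
Btg2: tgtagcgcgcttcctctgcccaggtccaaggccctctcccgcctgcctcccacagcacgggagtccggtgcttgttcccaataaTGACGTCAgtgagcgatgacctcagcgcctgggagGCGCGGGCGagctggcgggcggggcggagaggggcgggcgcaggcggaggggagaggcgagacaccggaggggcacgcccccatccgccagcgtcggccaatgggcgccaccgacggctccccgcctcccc
Promoters of 9 of the 10 genes were matched in RefSeq, all but that of Egr1. The whole CRE was found in Btg2 alone among them and in 1.55% of 32851 promoters, and within it lies the short form on both strands. The short form was found in 6 of the 9, namely Fos, Fosb, Junb, Atf3, Nab1 and Btg2, and in 17.8% of all promoters. The Egr site was found in Fosb, Nab1 and Btg2, and in 4.7% of all promoters. The TATA box was found in Fos and in 12.4% of all promoters. In these windows 0 of the 9 held the AP-1 site (TGANTCA, 6.75% of all promoters), the serum response element core known as the CArG box (1.47%) or the ETS core (CCGGAA, 12%). Sites outside the 250 bases, and any site of Egr1, were not searched, so these genes may hold such sites elsewhere.

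Levels are given as scaled FPKM, the fragments per kilobase of transcript, relative to all mapped fragments, as estimated by the authors, and divided here by a median-of-ratios factor between 0.983 and 1.058 for each library. Differences between groups are differences of mean log2(scaled FPKM + 1), and they understate the fold of weakly expressed genes. Their standard error (SE, n = 3 per group) is that of the limma fit. It pools the spread within groups over all 9 libraries and is moderated across genes, so a gene has the same SE in every comparison. FPKM takes the length of the transcript into account, so that levels of different genes can be set side by side. The number of fragments behind a value was derived from the confidence interval in the tables. Over well-covered long genes these intervals gave a depth of 4370000 to 7810000 fragments per library, and 14182 to 14914 genes had a value above 0. The study's methods name a larger number of reads per sample. That gap was not examined, so derived fragment numbers are approximate. In Mild IOP replicate 2 the microRNA gene Mir1249 held 20.5% of all FPKM, and in Moderate IOP replicate 3 Mir8104 held 9.14%.

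Cell types were followed with lists of markers. Whether each marker was confined to its cell type was not tested, so the sums do not fully separate the types. The summed level of 10 RGC markers ranged from 2570 to 2628 in Control, from 1928 to 2361 in Mild IOP and from 3530 to 3700 in Moderate IOP. Of the 10, 7 were higher in Moderate than in Mild IOP at a false discovery rate (FDR) below 0.1 (limma). Of all genes tested, 10.2% were called in that comparison. Against Control, 2 of the 10 were higher in Moderate IOP by the same rule and 0 lower, where 1.84% of all genes were called. Sncg and Calb2 were the highest of the 10 and weighed most in the sum. Pou4f2 stood at 8.98 to 10.2 scaled FPKM in Control and at 7.16 to 10.7 in Moderate IOP. Other cells were also present. The 7 amacrine cell markers summed to between 1179 and 1290 in Control, between 1227 and 1325 in Mild IOP, and between 931.9 and 999 under Moderate IOP. The list did not move as a whole. Gad1, Gad2, Slc6a9 and Pax6 lay below Control in all Moderate IOP replicates, Slc32a1 and Tfap2b overlapped with Control, and Tfap2a lay above it. At an FDR below 0.1, 2 of the 7 were lower in Moderate IOP than in Control and 0 higher (limma), with 1.84% of all genes called. The 6 rod markers summed to 481.9 to 564.8, 351 to 370 and 339.1 to 364.2 in the same order. Against Control, 2 were called lower in Mild IOP (0.399% of all genes called) and 3 in Moderate IOP (1.84%). Pdc and Nrl overlapped with Control in both IOP groups. The 6 Müller glia markers summed to 114.1 to 126.6, 106.7 to 139 and 164.8 to 221.5, and 2 were called higher in Moderate IOP than in Control. Slc1a3 and Aqp4 overlapped with Control there. Genes of the lens, 8 in number, summed to 233.7 to 307.4 in Control and to at most 2.87 in both IOP groups. Of the 6 tested, 5 were called lower than Control in each IOP group. The 5 microglial markers reached at most 9.75 in any library, and of the 5 endothelial markers Cldn5 and Cdh5 were listed at 0 in all 9 libraries. Several of these lists moved with the groups compared below, and their part in the levels of the immediate early genes was not tested. In pooled RNA, a lower level from fewer cells of a type and one from less RNA per cell cannot be told apart.

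The 10 genes spanned from under 1 to over 100 scaled FPKM. In Control, Fos and Jund were highest, at 103 ± 9.31 and 97.6 ± 12.3 scaled FPKM (SD, n = 3), with overlapping replicates, followed by Egr1 at 71.7 ± 3.57. Nab2, Junb, Jun and Btg2 formed a middle tier from 26.8 down to 15.4, in which each overlapped with the next in order. Nab1 stood below them at 7.23 ± 1.80, and Atf3 and Fosb came last and overlapped. In Moderate IOP, Fos and Jund again held the first places and overlapped, and Egr1 overlapped with Junb. Nab2 had moved from the fourth place in Control to the seventh, where it overlapped with Nab1. Among the 13043 genes tested, the mean of Nab2 lay at the 74.7th percentile in Control, the 67.4th in Mild IOP and the 45.8th in Moderate IOP.

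**Figure D1:**
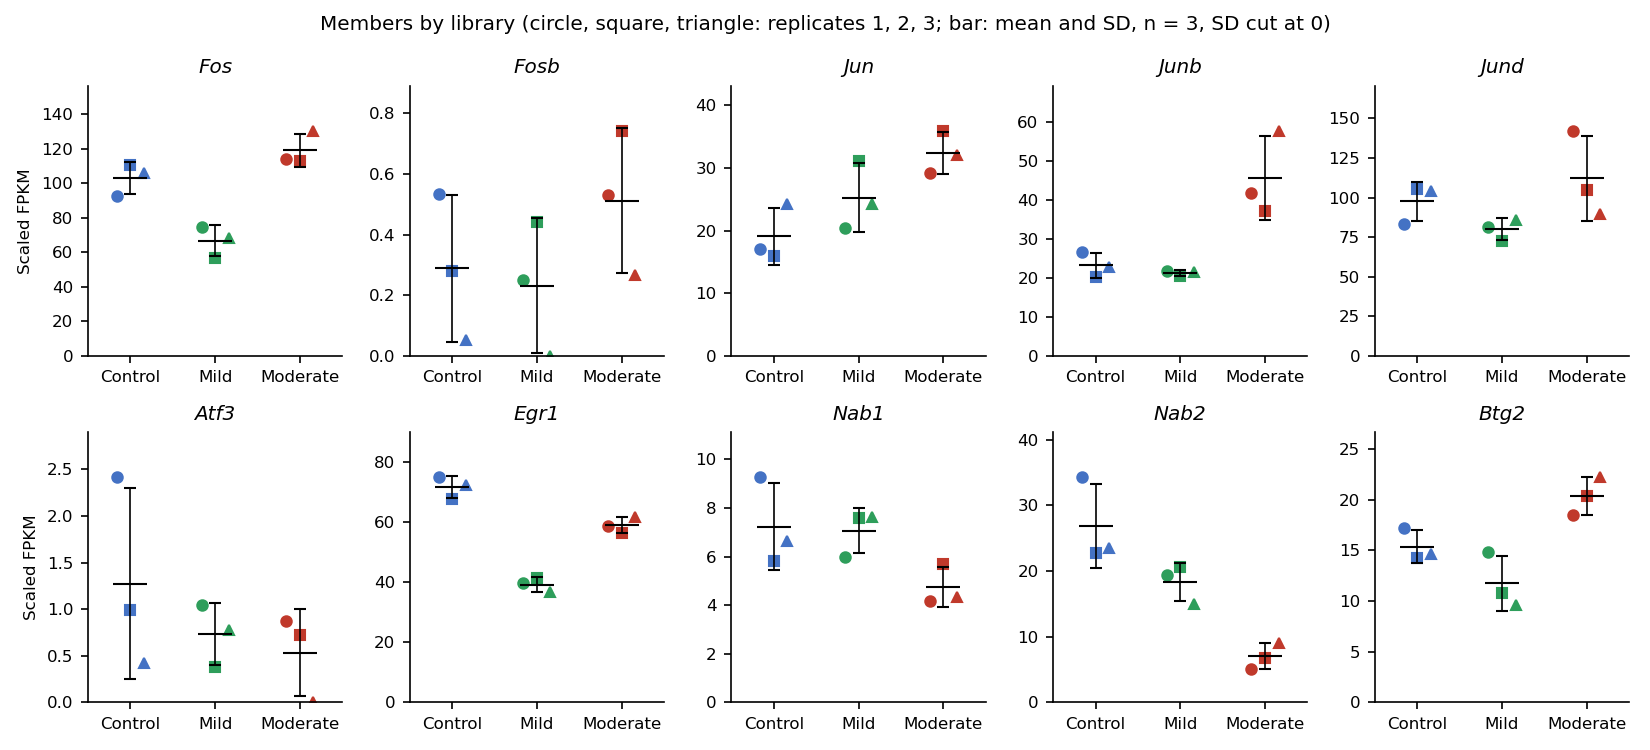
Scaled FPKM of the 10 genes (y axes, linear from 0, one scale per gene) in Control, Mild IOP and Moderate IOP (x axes), with circles, squares and triangles for replicates 1, 2 and 3 and bars for the mean and SD (n = 3, cut at 0). Fos and Egr1 have their lowest values in Mild IOP, Junb is high in Moderate IOP, and Nab2 stands between 5.16 and 9.10 in Moderate IOP against 22.7 to 34.2 in Control.

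Fos encodes the prototype Fos subunit of AP-1 (mm10 chromosome 12, 85473901 to 85477270, plus strand). Its replicates stood at 92.8, 111 and 106 scaled FPKM in Control, at 74.6, 56.9 and 68.2 in Mild IOP and at 114, 113 and 130 in Moderate IOP, from 748 to 2042 derived fragments. All Mild IOP replicates lay below all Control replicates, and all Moderate IOP replicates lay above both, although the gap between the highest Control and the lowest Moderate IOP replicate was small. The log2 difference was −0.63 (SE 0.135) for Mild IOP against Control, 0.21 for Moderate IOP against Control and 0.84 for Moderate against Mild IOP. Without Control replicate 1, the second of these was 0.13. The mean of Fos was 1.79-fold higher in Moderate than in Mild IOP.

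Fosb, a second Fos subunit (chromosome 7, 19302696 to 19310045, minus strand), was near the limit of detection. It stood at 0.53, 0.28 and 0.05 scaled FPKM in Control, at 0.25, 0.44 and 0 in Mild IOP and at 0.53, 0.74 and 0.27 in Moderate IOP, from 0 to 25 fragments, and all groups overlapped. With a mean below 0.5 it did not enter the fit.

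The 3 Jun subunits differed from each other in how their groups lay. Jun, which encodes the subunit known for its role after axon injury (chromosome 4, 95049036 to 95052222, minus strand), stood at 17.1, 15.9 and 24.3 scaled FPKM in Control, at 20.4, 31.2 and 24.3 in Mild IOP and at 29.3, 35.9 and 32.0 in Moderate IOP. The Mild IOP replicates overlapped with both other groups, while the Moderate IOP replicates all lay above Control. The log2 differences were 0.39 for Mild IOP and 0.75 for Moderate IOP against Control, and 0.36 between Moderate and Mild IOP (SE 0.201). The first was 0.23 without Mild IOP replicate 2, and the last was 0.23 without Mild IOP replicate 1. Jun was the single gene of the 10 with a mean in Mild IOP above that in Control.

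Junb, whose protein can temper AP-1 activity driven by Jun (chromosome 8, 84976909 to 84978748, minus strand), stood at 26.7, 20.3 and 22.8 scaled FPKM in Control and at 21.9, 20.4 and 21.5 in Mild IOP. In Moderate IOP its replicates stood at 41.8, 37.2 and 57.7, all above every replicate of the other groups. The log2 difference was −0.12 for Mild IOP against Control, 0.93 for Moderate IOP against Control and 1.04 for Moderate against Mild IOP (SE 0.178), the last a 2.14-fold higher mean. The first was −0.02 without Control replicate 1 and −0.20 without Control replicate 2, and −0.07 without scaling and −0.06 with upper-quartile scaling. Moderate IOP replicate 3 was the highest, and without it the difference from Control was still 0.75 or more, as in every alternative tried. Junb overlaps Prdx2, a peroxiredoxin gene, in the annotation, and the library type keeps no strand. Prdx2 stood at 662, 525 and 635 scaled FPKM on average in Control, Mild IOP and Moderate IOP, and the FDR for Moderate IOP against Control was 0.87 (limma).

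Jund, the Jun subunit that is expressed at a steady level in many cells (chromosome 8, 70697739 to 70700616, plus strand), stood at 83.4, 105 and 104 scaled FPKM in Control, at 81.6, 72.8 and 86.0 in Mild IOP and at 142, 105 and 89.6 in Moderate IOP. The Moderate IOP replicates spread the most of the groups, with a coefficient of variation of 24.0%, and overlapped with Control but not with Mild IOP. The log2 differences were −0.28, 0.18 and 0.46 (SE 0.172) in the order Mild IOP against Control, Moderate IOP against Control and Moderate against Mild IOP. Without Moderate IOP replicate 1, the difference from Control was 0.002 and that from Mild IOP 0.28. The difference from Control was 0.07 without Control replicate 1 and 0.33 without Moderate IOP replicate 3.

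Atf3, a stress-induced member of the ATF/CREB family (chromosome 1, 191170297 to 191183333, minus strand), was low in all groups. It stood at 2.41, 0.99 and 0.42 scaled FPKM in Control, at 1.04, 0.38 and 0.77 in Mild IOP and at 0.87, 0.73 and 0 in Moderate IOP, from 0 to 33 fragments. All groups overlapped. The log2 differences of −0.32, −0.53 and −0.21 had an SE of 0.386, and single libraries or the pseudocount moved each of them. Over all alternatives they ranged from −0.61 to 0.025, from −1.38 to −0.18 and from −0.86 to 0.074, with changes of sign without Control replicate 1 in the first and without Moderate IOP replicate 3 in the last.

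Egr1 (chromosome 18, 34861207 to 34864956, plus strand) had close replicates. It stood at 74.9, 67.9 and 72.4 scaled FPKM in Control, at 39.8, 41.3 and 36.6 in Mild IOP and at 58.6, 56.5 and 61.8 in Moderate IOP, with a coefficient of variation of 4.55% to 6.05% within groups. No groups overlapped, and the order was Control, Moderate IOP, Mild IOP. The log2 difference was −0.86 (SE 0.116) for Mild IOP against Control, −0.28 for Moderate IOP against Control and 0.58 for Moderate against Mild IOP. Mean Egr1 was 1.83-fold lower in Mild IOP and 1.22-fold lower in Moderate IOP than in Control. Like Fos, it was lower in Mild IOP than in both other groups, but in Moderate IOP Egr1 stayed below Control whereas Fos lay above it.

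The Nab corepressors had their lowest values in Moderate IOP. Nab2 (chromosome 10, 127660918 to 127666703, minus strand) stood at 34.2, 22.7 and 23.5 scaled FPKM in Control, at 19.3, 20.5 and 15.1 in Mild IOP and at 5.16, 6.77 and 9.10 in Moderate IOP, from 58 to 511 fragments. The 3 groups did not overlap. The log2 difference was −0.52 for Mild IOP against Control, −1.80 for Moderate IOP against Control and −1.29 for Moderate against Mild IOP (SE 0.231), and the mean was 3.83-fold lower in Moderate IOP than in Control. The Mild IOP difference was −0.33 without Control replicate 1. The Moderate IOP difference from Control was the widest gap between groups of any of the 10 genes, and it stayed between −1.98 and −1.62 under all alternatives. By qPCR the study also reported a fall of Nab2 in Moderate IOP, smaller on the log2 scale than in its sequencing.

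Nab1 (chromosome 1, 52455849 to 52500448, minus strand) stood at 9.26, 5.81 and 6.64 scaled FPKM in Control, at 5.99, 7.59 and 7.63 in Mild IOP and at 4.19, 5.71 and 4.35 in Moderate IOP. Control and Mild IOP overlapped, and the Moderate IOP replicates lay below both, the highest of them only just below the lowest of Control. The log2 difference was −0.01 for Mild IOP against Control, a value that changed sign without scaling, with upper-quartile scaling and without Control replicate 1 or Mild IOP replicate 1, with a range of −0.14 to 0.16. It was −0.51 for Moderate IOP against Control and −0.49 for Moderate against Mild IOP (SE 0.225), and the former was −0.34 without Control replicate 1.

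Genes that overlap Nab2 in the annotation were looked at as well, since reads of overlapping genes cannot be parted by strand here. Stat6, a cytokine signalling factor whose end meets that of Nab2, stood at 3.99, 4.08 and 3.97 scaled FPKM on average in Control, Mild IOP and Moderate IOP, with an FDR of 0.95 for Moderate IOP against Control (limma). Tmem194, the older symbol of Nemp1, a nuclear envelope gene on the other side of Nab2, stood at 0.54, 1.47 and 0.07, from 0 to 21 fragments. Its Moderate IOP replicates, with at most 1 fragment each, lay below those of both other groups. For Moderate IOP the FDR was 0.54 against Control and 0.11 against Mild IOP (limma), and its part in the level of Nab2 was not tested. In the tables the locus of Tmem194 lies outside that of Nab2. Other annotated genes that overlap Nab2, Jun, Jund or Atf3 were not analysed here.

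Btg2 (chromosome 1, 134074865 to 134079155, minus strand) stood at 17.2, 14.2 and 14.6 scaled FPKM in Control, at 14.8, 10.8 and 9.66 in Mild IOP and at 18.5, 20.4 and 22.2 in Moderate IOP. Moderate IOP lay above both other groups, and 1 Mild IOP replicate fell within the Control range. The log2 difference was −0.38 for Mild IOP against Control, 0.39 for Moderate IOP against Control and 0.76 for Moderate against Mild IOP (SE 0.185), so that its pattern had the same order of means as that of Fos.

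**Figure D2:**
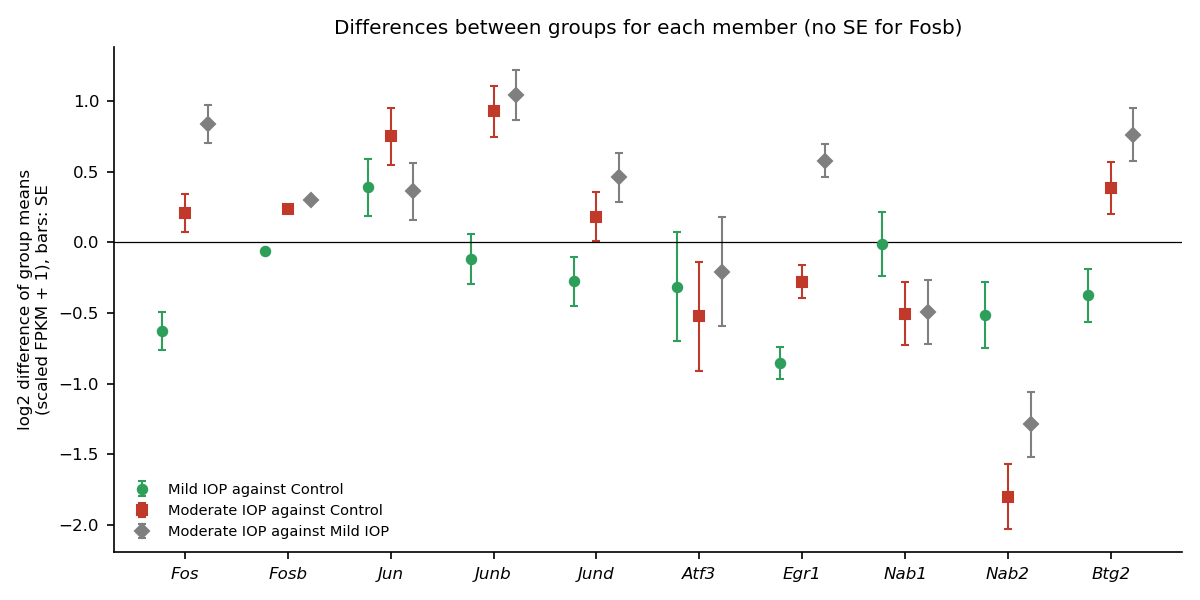
Difference of group means of log2(scaled FPKM + 1) (y axis) for the 10 genes (x axis), with circles for Mild IOP against Control, squares for Moderate IOP against Control, diamonds for Moderate against Mild IOP and bars for the SE (none for Fosb). Nab2 reaches −1.80 in Moderate IOP against Control while Junb reaches 0.93, and 9 of the 10 circles lie below 0.

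Across the 10 genes, the mean was lower in Mild IOP than in Control for 9 of 10, with a median log2 difference of −0.30 against 0.006 over all genes tested. Without Control replicate 1 the median was −0.16. Fos, Egr1 and Nab2 were lower without overlap between groups, where 17.1% of all genes did not overlap (9.13% lower and 7.94% higher). For Moderate IOP against Control, means were higher for 6 and lower for 4, with a median of 0.19 against 0.004 over all genes, or 0.10 without Control replicate 1 and 0.11 without Moderate IOP replicate 1. Of the 10 genes 7 did not overlap, 4 higher and 3 lower, against 19.4% of all genes (9.95% higher and 9.48% lower). Between Moderate and Mild IOP, means were higher for 7 and lower for 3, with a median of 0.41 against −0.016. Of the 10 genes 7 did not overlap, 5 higher and 2 lower, against 27.5% of all genes (14.5% higher and 13.0% lower). Because these contrasts were used to pick the genes, and share libraries with each other, nothing is read from the counts.

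Ratios of genes within a library do not depend on the scaling of libraries. Egr1 per Nab2 stood at 2.19, 2.99 and 3.08 in Control, at 2.06, 2.01 and 2.43 in Mild IOP and at 11.4, 8.35 and 6.79 in Moderate IOP. The ratio overlapped between Control and Mild IOP and was higher in all Moderate IOP replicates. It restates the levels of Egr1 and Nab2 given above, genes picked with results known, and is no separate result. When both corepressors were counted, Egr1 per summed Nab1 and Nab2 was 2.17 ± 0.39, 1.55 ± 0.076 and 5.13 ± 0.99 (SD, n = 3) for Control, Mild IOP and Moderate IOP. Of the summed Nab transcripts, Nab2 made up 78.8 ± 0.82%, 71.9 ± 5.10% and 59.0 ± 7.49% in the same order.

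The summed level of the 5 AP-1 subunit genes stood at 220.5, 252.6 and 257.3 scaled FPKM in Control, at 198.6, 181.7 and 200 in Mild IOP and at 327.9, 292.0 and 309.9 in Moderate IOP, without overlap between groups. As these genes were picked with results known, nothing is read from that separation. Fos held 42.4 ± 1.33%, 34.3 ± 3.13% and 38.5 ± 3.60% of this sum for Control, Mild IOP and Moderate IOP. Jund held 40.0 ± 1.99%, 41.4 ± 1.49% and 36.1 ± 7.21% in the same order, so that Fos and Jund together made up most of the sum of these 5 genes in all groups. Junb held 9.67 ± 2.16%, 11 ± 0.25% and 14.7 ± 3.40%, and Jun 7.83 ± 1.58%, 13.2 ± 3.57% and 10.5 ± 1.70%. The ratio of Fos to Jun family transcripts was 0.740 ± 0.041, 0.528 ± 0.072 and 0.635 ± 0.095 for the same groups, and Moderate IOP overlapped with both other groups.

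**Figure D3:**
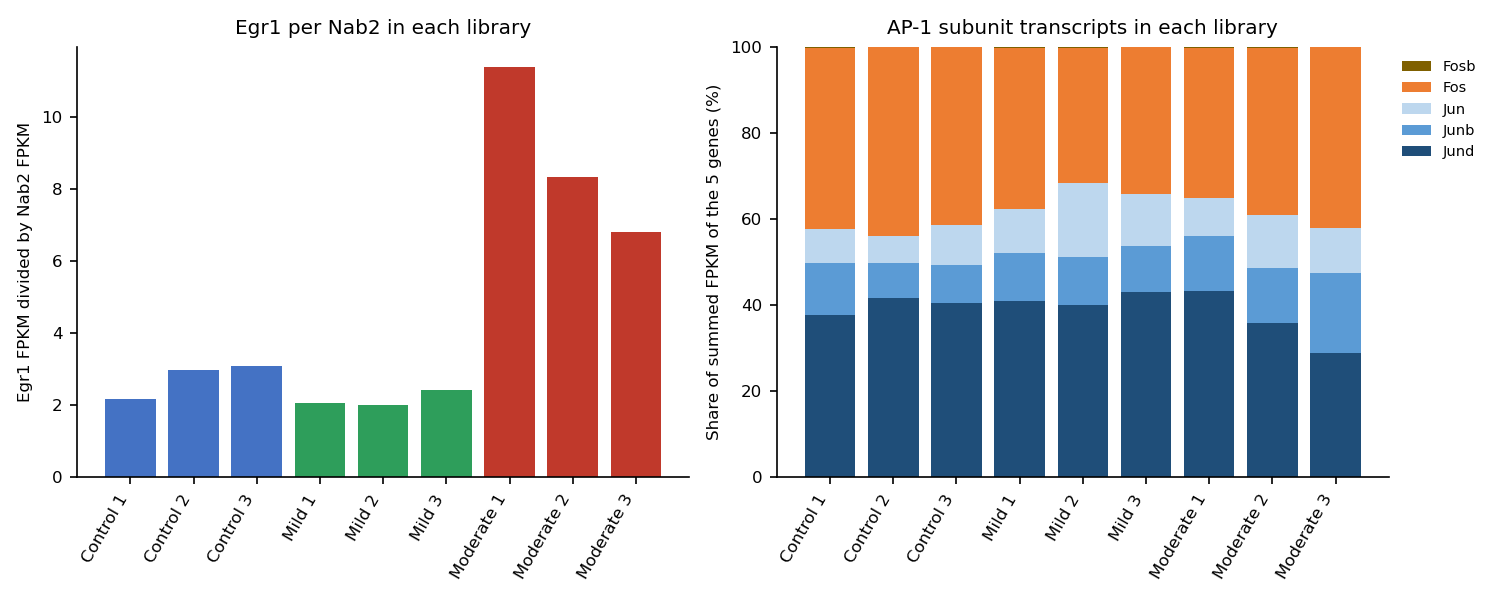
Left, Egr1 FPKM divided by Nab2 FPKM in each library (bars from 0), and right, the share of Fosb, Fos, Jun, Junb and Jund in their summed FPKM (stacked bars, percent), for replicates 1 to 3 of Control, Mild IOP and Moderate IOP. Egr1 per Nab2 is 6.79 or more in Moderate IOP and 3.08 or less elsewhere, and the mean Fos share is lowest in Mild IOP, at 34.3%.

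Other genes of the same pathways were taken from lists of 90 genes, of which 74 passed the filter on low values. Of these, 1 was called in Mild IOP against Control (1.35%, with 0.399% of all genes), 2 in Moderate IOP against Control (2.7%, with 1.84%) and 5 between Moderate and Mild IOP (6.76%, with 10.2%), all by limma at an FDR below 0.1. The median log2 difference of the 74 genes was −0.02, 0.002 and −0.03 in these comparisons. Beside the lists in which no gene was called, the number with an unadjusted p under 0.05 is given in the same order, and over all genes tested that share was 10.2%, 15.3% and 21.8%.

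AP-1 partners outside the 10 genes were 11, of which 5 were tested and 0 called in any comparison, with an unadjusted p under 0.05 for 0, 0 and 1 of the 5. The highest, Jdp2, a dimer partner that represses AP-1, stood at 54.0 scaled FPKM in Control and at 44.3 in both IOP groups (FDR of 0.65 and 0.47 against Control). Fosl1, Fosl2, Maff and the Batf genes had means below 0.5.

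Among 32 further immediate early genes, 27 were tested. Nr4a1, an orphan nuclear receptor, stood at 28.9, 34.6 and 37.0 scaled FPKM in Control, at 18.7, 18.5 and 13.2 in Mild IOP and at 24.1, 23.1 and 22.3 in Moderate IOP. It fell in Mild IOP against Control by 0.96 on the log2 scale (SE 0.17, FDR = 0.063, limma), with all Mild IOP replicates below all Control replicates. This call was lost in 6 of the 9 fits that left out a library, as well as without the filter, with the 2 groups alone and with the replicate block. Like Egr1, Nr4a1 had its mean order Control, Moderate IOP, Mild IOP.

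Cyr61, a matricellular protein gene, stood at 0, 0.90 and 0.82 scaled FPKM in Control, at 2.89, 1.48 and 1.97 in Mild IOP and at 4.97, 14.9 and 10.3 in Moderate IOP, from 0 to 245 fragments. It rose in Moderate IOP against Control by 2.76 (SE 0.39, FDR = 0.0099, limma), a call kept under all alternatives in which it was tested (4.36 with a pseudocount of 0.1), and against Mild IOP by 1.74 (FDR = 0.028), a call lost without Mild IOP replicate 2 and with a pseudocount of 0.1. Ier3, a stress-response gene, stood at 11.2, 9.72 and 18.6 in Mild IOP and at 23.3, 40.8 and 23.1 in Moderate IOP, and was higher in Moderate IOP by 1.09 (SE 0.27, FDR = 0.043). Egr4, a second gene of the Egr family, stood at 4.23, 2.62 and 2.34 in Mild IOP and at 5.18, 5.54 and 8.54 in Moderate IOP, higher by 0.87 (SE 0.27, FDR = 0.087). Ier3 lost its call without Mild IOP replicate 1 or 2 or Moderate IOP replicate 2, and Egr4 in 6 of the 9 fits that left out a library, as well as without scaling, with upper-quartile scaling, without the filter, with the 2 groups alone and with the replicate block. Egr2 and Egr3 had means below 0.5, and Egr3 was listed at 0 in all libraries. The highest gene of this list, Rheb, a small GTPase of the mTOR pathway, stood at 109, 92.0 and 129 on average in Control, Mild IOP and Moderate IOP and was not called (FDR of 0.76 and 0.55 against Control).

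Feedback inhibitors of MAP kinase signalling, which are induced alongside immediate early genes, numbered 15, with 14 tested. Dusp4, a MAP kinase phosphatase, stood at 5.79, 3.99 and 4.91 scaled FPKM in Control, at 3.70, 4.68 and 3.05 in Mild IOP and at 0.86, 1.63 and 1.22 in Moderate IOP, from 10 to 100 fragments. It fell in Moderate IOP by 1.40 against Control (SE 0.25, FDR = 0.035, limma) and by 1.10 against Mild IOP (FDR = 0.03), and these calls were lost without Control replicate 1 and without Mild IOP replicate 2, respectively. The means of Dusp4 and Nab2 shared the descending order Control, Mild IOP, Moderate IOP. Spry1, an inhibitor of receptor tyrosine kinase signalling, stood at 7.76, 7.35 and 6.96 in Mild IOP and at 4.10, 2.94 and 3.56 in Moderate IOP, and fell in Moderate against Mild IOP by 0.89 (SE 0.20, FDR = 0.028), a call lost without Mild IOP replicate 2. Dusp1, the phosphatase with the highest level, stood at 67.5, 48.1 and 62.0 on average in Control, Mild IOP and Moderate IOP and was not called (FDR of 0.27 in Mild IOP against Control).

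**Figure D4:**
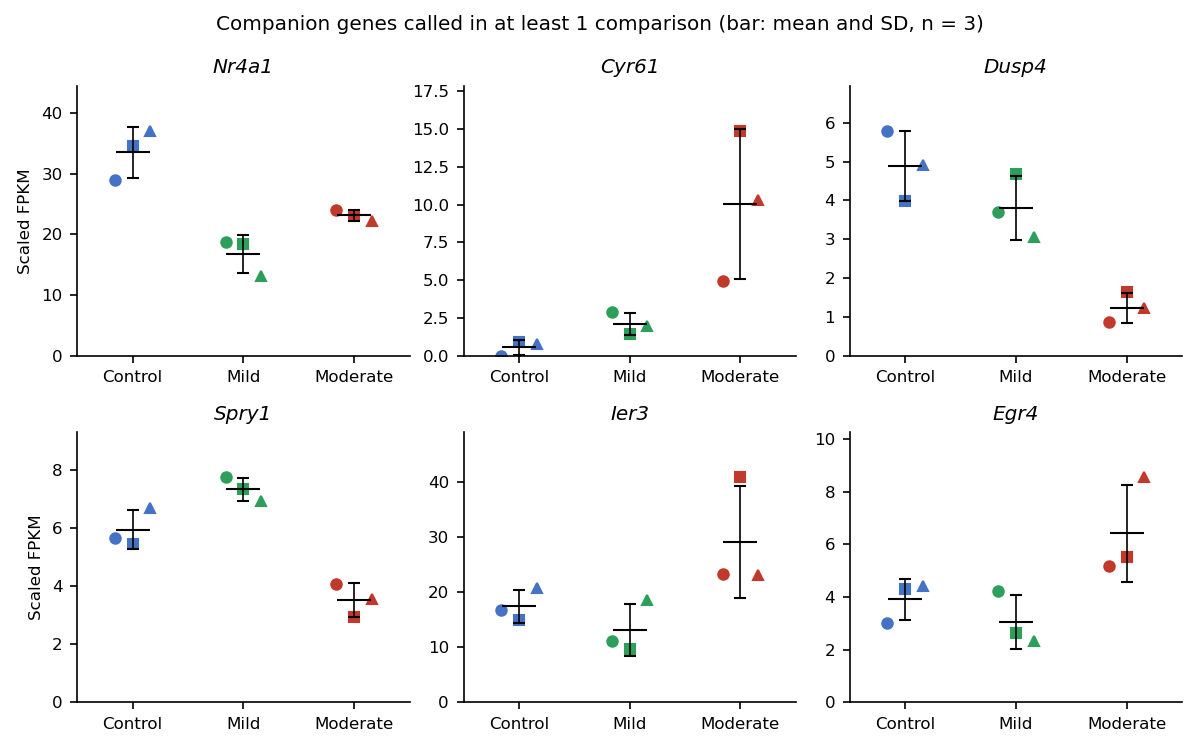
Scaled FPKM (y axes, linear from 0) of the 6 pathway genes with an FDR below 0.1 in at least 1 comparison, by group (x axes), with symbols for replicates as in the plot of the 10 genes and bars for the mean and SD (n = 3). Nr4a1 is lowest in Mild IOP, Dusp4 and Spry1 are lowest in Moderate IOP, and Cyr61, Ier3 and Egr4 are highest there.

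Kinases and transcription factors upstream of immediate early genes, such as Srf, Creb1 and the MAP kinases, numbered 27, with 25 tested and 0 called in any comparison (limma) and an unadjusted p under 0.05 for 0, 3 and 5 of them, against 10.2%, 15.3% and 21.8% of all genes. Of the Btg and Tob family, 3 of 5 genes were tested and 0 were called by limma, with an unadjusted p under 0.05 for 1, 1 and 0 of the 3. Btg1, the highest of them, stood at 27.2, 24.8 and 32.4 scaled FPKM on average in Control, Mild IOP and Moderate IOP (FDR of 0.91 and 0.51 against Control).

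The genes whose profile over the 9 libraries lay nearest to the mean profile of the 9 tested immediate early genes were Mrpl4, Eif3c, Tsen34, B230217C12Rik and Arl1, chosen among 6035 genes with a mean of at least 10 scaled FPKM. Their root-mean-square difference from that profile was 0.065 to 0.077 on the log2 scale, where the median gene had 0.284. The immediate early genes themselves lay between 0.237 (Egr1) and 0.797 (Nab2) from it, so that the mean profile described few of them closely.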

How the data were processed

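RGC mRNA was sequenced in 9 libraries, 3 technical replicates for each of 3 pools. Per the labels, cDNA was primed by oligo-dT (SMART-seq v4) and tagged with Nextera XT, which keeps no strand, and the submitters' processing notes name FastQC, Trimmomatic, TopHat2, Cufflinks, Cuffdiff and mm10, whereas the study's methods name bowtie2 as aligner. The deposited values are FPKM per gene, estimated by the authors for each library with Cufflinks, with confidence bounds. Loci sharing a symbol were summed. Derived fragment numbers, which assume that the bounds reflect counting error, came from these bounds, and depth from transcripts of at least 2000 nt (GENCODE M21) with at least 100 fragments.

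FPKM were scaled by median-of-ratios factors. Genes with a mean of at least 0.5 and no failed estimate, 13043 in all, were fitted as log2(scaled FPKM + 1) with limma 3.58.1 in R 4.3.3, using group means over all 9 libraries and empirical Bayes moderation with a variance trend. FDR was by Benjamini-Hochberg within each comparison, with 0.1 as in the study's methods. P-values measure technical spread only. The fit was tested on simulated data. Figures and counts were made with Python 3.11.15.

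The 10 genes, the pathway lists and the marker lists were chosen with earlier results of these data known. Named were the 10 genes, every pathway gene called, the highest pathway gene of each list, genes overlapping one of the 10, and the 5 genes nearest to their mean profile. A single gene that this rule selects is not reported here. Genes named outside this rule were chosen after their values were seen. They were Mir1249, Mir8104, Ddx3y, Cldn5, Cdh5, the RGC, amacrine, rod and Müller glia markers given by name, and the Batf genes, Fosl1, Fosl2, Maff, Egr2 and Egr3 below the filter. Alternatives covered scaling, pseudocount, filter, groups in the fit, a replicate block and leaving out each library.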

Additional observations from a re-analysis of the deposited data

How the results depend on the processing

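Direction was kept in every called difference of the pathway genes under all alternatives in which the gene was tested. Differences of the 10 genes kept their sign under all alternatives except those of Fosb, Nab1 and Atf3 in Mild IOP against Control and of Atf3 between the IOP groups. Calls over all genes varied more. In Mild IOP against Control, 52 genes were called, with 24 when no filter on low values was used, 85 with a mean of at least 5 scaled FPKM and 11 with the 2 groups alone. Leaving out 1 library gave 15 to 183 calls there, 61 to 287 (240 with all libraries) in Moderate IOP against Control and 519 to 1399 (1324) between Moderate and Mild IOP. In Mild IOP against Control the count moved by over 1.5 times without Control replicate 1 (18), 2 (23) or 3 (20), Mild IOP replicate 1 (21), 2 (15) or 3 (183) or Moderate IOP replicate 2 (18). In Moderate IOP against Control it did so without Control replicate 1 (61) or 2 (86), Mild IOP replicate 1 (141) or Moderate IOP replicate 1 (146) or 2 (110), and between the IOP groups without Mild IOP replicate 1 (747) or 2 (519) or Moderate IOP replicate 2 (778). With the 2 groups alone, 134 genes were called in Moderate IOP against Control. Pathway genes called in Mild IOP against Control, 1 in all, numbered 0 without the filter and with the 2 groups alone, and 0 to 1 with a library left out. In Moderate IOP against Control the 2 calls became 0 with a mean of at least 5, as Cyr61 and Dusp4 then fell below the filter, and 1 to 2 with a library left out. Between Moderate and Mild IOP the 5 calls became 2 with a mean of at least 5, and 0 to 6 with a library left out, with 0 without Mild IOP replicate 2 and 3 without Moderate IOP replicate 2. The median difference of the 10 genes ranged from −0.369 to −0.157 in Mild IOP, from 0.103 to 0.24 in Moderate IOP and from 0.361 to 0.486 between them when a library was left out. The cause of these moves was not tested.

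Deviations from the group mean correlated across genes between −0.005 and 0.044 for libraries with the same replicate number, so the numbers did not pair the libraries. With the replicate block, 25 genes were called in Mild IOP and 135 in Moderate IOP against Control, and 0 pathway genes in Mild IOP. Fosb and Atf3 rest on at most 33 fragments a library, which limits any statement on them, and 3 pools of RNA do not show variation between animals.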
